A study of Mus musculus with 3 samples.

Results

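The 37 genes described here are interferon-stimulated genes outside the large IFIT and OAS families: Isg15, Irf7, Zbp1, Rsad2, Ifitm3 and others that cells switch on when interferon binds its receptor. The rule that defines them is a list of gene symbols, matched without any measured value. The list was chosen with earlier results of these data known, so counts of members beside all genes are descriptions. All 37 symbols were found among the 31053 genes counted in each library. The data are 10x single-cell RNA counts of monocytes and macrophages taken from the wounded skin of mice of the inbred strain C57BL6/J, all male and labelled as wild type, at 3, 6 and 10 days after injury. Each day is 1 library made from a pool of 2 mice, no treatment is stated for any of them, and the markers and gates of the isolation are not given in the sources used here. The mice of a pool cannot be told apart, so there are no replicates, no p-value can be given, and every interval below covers counting error only.

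Type I interferons signal through the receptor chains IFNAR1 and IFNAR2 to the kinases JAK1 and TYK2, which activate STAT2. A complex of STAT2 and IRF9 then binds interferon-stimulated response elements, short promoter sequences built around repeats of GAAA, and interferon gamma acts mainly through a different, palindromic element. The induced genes include sensors of foreign nucleic acid, proteins that block viral replication, and regulators such as IRF7 and USP18 that raise or damp the response itself. Monocytes that enter injured tissue from blood carry much Ly6c2 and lose it as they become macrophages, which gain complement genes such as C1qa. Ly6c2 is itself known to be inducible by interferon, and Cd209a marks monocyte-derived cells with dendritic features.

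Promoter sequence was in hand for 28 of the 37 members, from RefSeq (GRCm38.p6), and a pair of GAAA words with any 2 bases between them, searched on both strands in the 250 bases before the transcription start, was present in 11 of them (39.3%). The same pattern was found in 936 of 27025 genes with such a window (3.46%). The palindrome TTCNNNGAA occurred in 4 of the 28 members (14.3%) and in 8.13% of all genes, and the 2 patterns can overlap. Of the 5 windows shown, Isg15 and Rsad2 belong to members with steep falls over the days, Phf11a fell steeply in C1qa-positive cells but near the median member over all kept cells, Bst2 is among the most abundant, and Samd9l changed least. Capitals mark the matches to the GAAA pair, overlapping ones merged, and all 5 genes lie on the minus strand.
Isg15, chr4:156200819-156201068: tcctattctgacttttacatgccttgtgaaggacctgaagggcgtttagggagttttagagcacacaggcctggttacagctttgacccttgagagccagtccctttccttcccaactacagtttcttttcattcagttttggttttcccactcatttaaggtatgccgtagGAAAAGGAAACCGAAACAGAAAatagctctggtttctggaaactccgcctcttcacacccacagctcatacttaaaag
Rsad2, chr12:26456453-26456702: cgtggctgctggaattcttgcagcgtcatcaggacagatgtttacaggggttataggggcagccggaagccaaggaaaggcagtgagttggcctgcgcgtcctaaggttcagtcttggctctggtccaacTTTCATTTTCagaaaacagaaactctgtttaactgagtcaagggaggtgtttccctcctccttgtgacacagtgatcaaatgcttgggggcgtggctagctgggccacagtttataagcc
Phf11a, chr14:59297523-59297772: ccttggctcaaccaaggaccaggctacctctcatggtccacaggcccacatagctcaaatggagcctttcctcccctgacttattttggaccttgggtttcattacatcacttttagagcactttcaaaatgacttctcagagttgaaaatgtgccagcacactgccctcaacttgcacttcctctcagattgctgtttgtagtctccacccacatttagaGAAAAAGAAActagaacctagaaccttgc
Bst2, chr8:71537473-71537722: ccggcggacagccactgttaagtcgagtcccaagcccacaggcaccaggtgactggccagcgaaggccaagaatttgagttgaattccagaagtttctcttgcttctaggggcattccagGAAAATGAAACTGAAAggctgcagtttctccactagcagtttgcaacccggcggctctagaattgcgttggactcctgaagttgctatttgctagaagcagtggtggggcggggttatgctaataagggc
Samd9l, chr6:3399572-3399821: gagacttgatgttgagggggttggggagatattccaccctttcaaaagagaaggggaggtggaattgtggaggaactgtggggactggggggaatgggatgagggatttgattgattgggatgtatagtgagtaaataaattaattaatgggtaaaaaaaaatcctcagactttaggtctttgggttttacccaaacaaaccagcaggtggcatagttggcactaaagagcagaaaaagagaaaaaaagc
Isg15 held 3 overlapping matches, Bst2 2, Rsad2 and Phf11a 1 each and Samd9l 0. The match nearest the start lay 66 bases upstream in Isg15, 124 in Bst2, 120 in Rsad2 and 29 in Phf11a. The 5 windows are examples, and whether matches go with the size of the fall was not tested. Irf7, Phf11d, Cmpk2 and Xaf1 also fell steeply and had 0 matches. Of members that changed little, Gbp3 had 2 in 1 of its windows, and Irf9 and Dtx3l had 0. A match is a string of letters and was not examined for binding.

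A cell was kept if it had 200 or more detected genes and less than 10% mitochondrial UMIs, which left 900, 598 and 1362 cells at days 3, 6 and 10, with 9757866, 7263942 and 12115163 UMIs (unique molecular identifiers, each counting 1 captured transcript). The monocyte and macrophage markers Lyz2, Csf1r, Cd68, Adgre1, Itgam, Fcgr1 and Cd14 were detected in every library, with Lyz2 at 13328, 6195 and 10176 CPM (counts scaled to the UMI total of the library) and Csf1r at 260.1, 340.2 and 412 CPM. T cell markers summed to 0.205, 0.688 and 0.743 CPM with at least 3 of 6 at 0 in each library. Natural killer cell markers summed to 2.77, 9.36 and 1.40 CPM, neutrophil markers to 166, 258 and 145 CPM with Ly6g at 0, and erythroid markers to 1.13, 1747 and 0.660 CPM. Langerhans cell markers summed to 8.30, 80.5 and 48.8 CPM, fibroblast markers to 3.18, 12.9 and 23.9 CPM and endothelial markers to 15.0, 31.0 and 39.0 CPM, so these 3 lists were higher at days 6 and 10, and their part in the members' fall was not tested. The libraries of days 6 and 10 shared 2 cell barcodes and the other pairs 0.

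Transcripts of the 37 genes were abundant in the wound at day 3 and scarce at day 10. Together they made up 13425 CPM at day 3, 4217 CPM at day 6 and 3512 CPM at day 10, so the sum was 3.18-fold lower at day 6 than at day 3 (3.14 to 3.22) and 3.82-fold lower at day 10 (3.78 to 3.86). Of the 37 members, 35 were at least 2-fold lower at day 10 than at day 3, against 3.96% of the 11289 genes that had 20 or more UMIs in the pair of libraries, and 0 were at least 2-fold higher, against 12.8%. The median member stood at a log2 ratio of −1.90, and the median over the 11289 genes was 0.17. The first interval held most of the loss: 25 of 37 members were at least 2-fold lower at day 6 than at day 3 (3.31% of all genes), and 11 of 37 at day 10 than at day 6 (3.63%), with medians of −1.27 and −0.59 against 0.24 and −0.07 over all genes. Scaling by trimmed means or by median-of-ratios factors moved every day 10 to day 3 log2 ratio by −0.15 or −0.19 and every day 6 to day 3 ratio by −0.23 or −0.26.

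**Figure D1:**
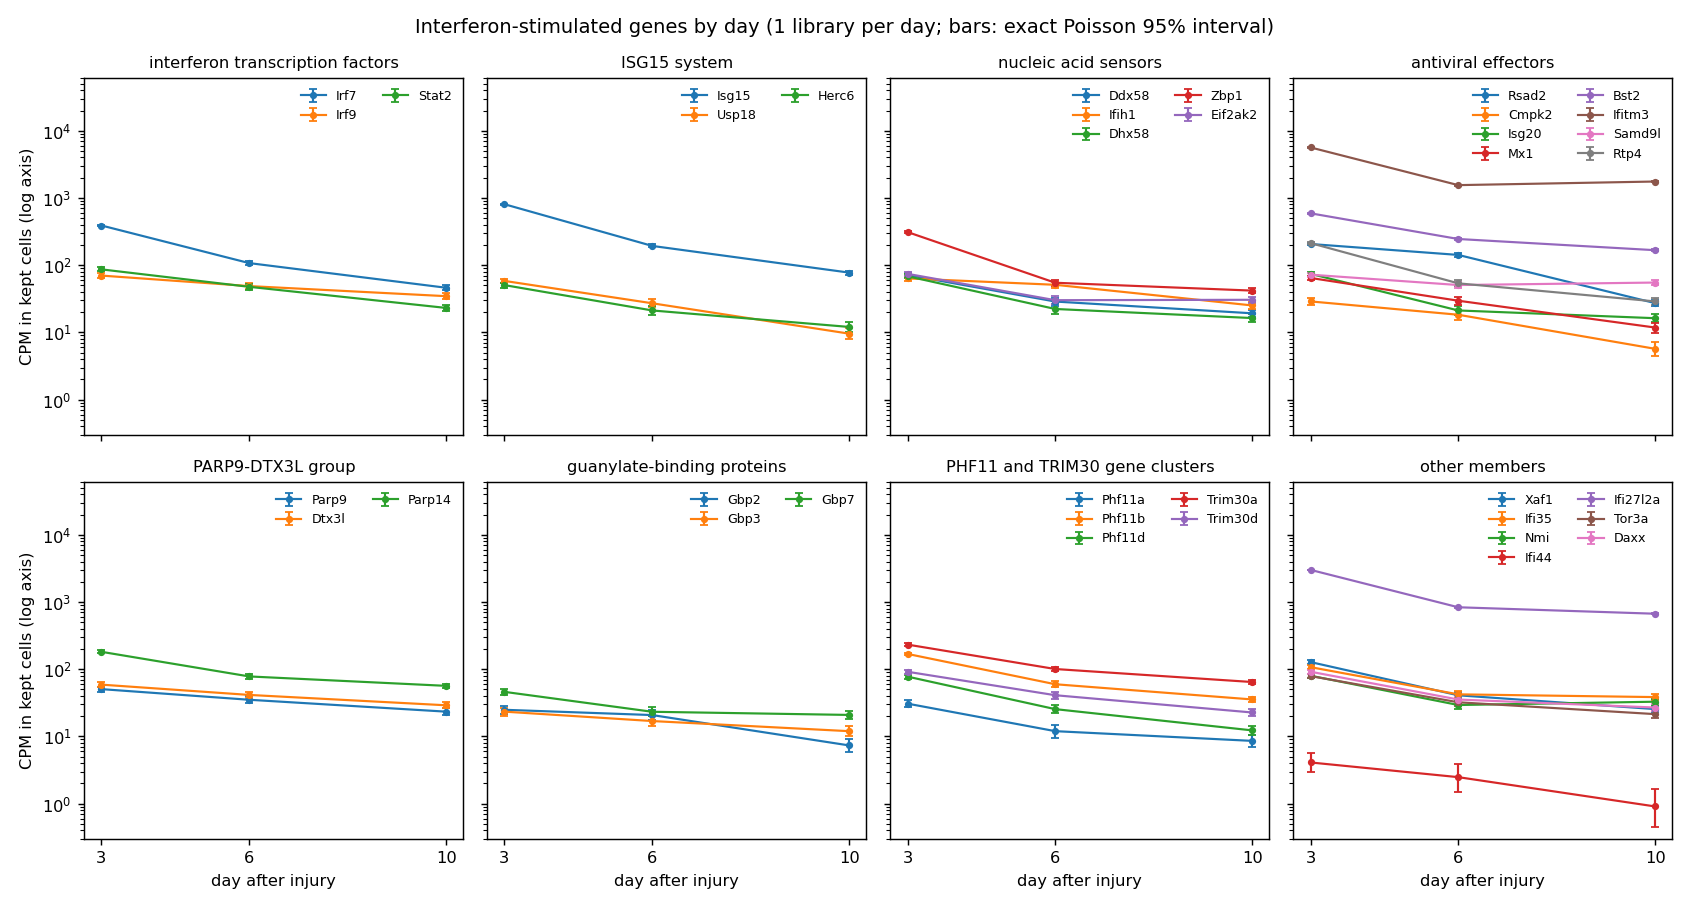
CPM of each of the 37 members in the kept cells at days 3, 6 and 10 after injury, on a log axis, in 8 panels by the known role of the gene; each point is 1 library and bars are exact Poisson 95% intervals. Isg15 descends from 807 to 77.5 CPM, while Samd9l stays between 50.7 and 72.3 CPM.

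The mixture of cells also changed over these days. Cells with at least 3 UMIs of Ly6c2 made up 42.4% of the kept cells at day 3, 5.02% at day 6 and 5.51% at day 10. Cells with at least 3 UMIs of C1qa made up 14.2%, 43.5% and 44.9%, and those with at least 3 UMIs of Cd209a 13.9%, 17.1% and 12.2%. When each day was reweighted to the day 3 mix of 5 exclusive marker classes, the summed ratio of day 10 to day 3 was 0.442 in place of 0.262, and 28 of 37 members were at least 2-fold lower. For day 6 against day 3 the reweighted ratio was 0.461 in place of 0.314, with 11 members at least 2-fold lower. The share over all genes was not computed under this reweighting, so these counts have no background beside them. Fewer cells of a type and less RNA per cell cannot be told apart in the sums over all kept cells, so the members are followed below first in all kept cells and then inside each marker population.

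Among the 3 transcription factor genes, all 3 were at least 2-fold lower at day 10 than at day 3. Irf7, the factor that amplifies type I interferon production, was measured at 389 CPM at day 3, 107 at day 6 and 46.1 at day 10, a fall of 8.44-fold (7.72 to 9.24). Irf9, the DNA-binding subunit of the complex with STAT2, was among the 5 members that changed least, with 70.0, 48.9 and 34.6 CPM. Its day 10 level was 2.02-fold below day 3 (1.79 to 2.29). Stat2 lay between them at 86.6, 47.6 and 23.1 CPM.

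The ISG15 system comprises a ubiquitin-like modifier, the protease that removes it and a ligase of the HERC family, and all 3 genes were at least 2-fold lower at day 10 (median log2 ratio −2.61). Isg15, which encodes the modifier (chromosome 4, 156199424 to 156200818, minus strand, GRCm38), was covered by 7870, 1405 and 939 UMIs, or 807, 193 and 77.5 CPM. Its 10.4-fold fall from day 3 to day 10 (9.72 to 11.1) was the largest among the 37 members. Usp18, which encodes the ISG15 protease and a brake on the interferon receptor, stood at 58.3, 27.1 and 9.58 CPM, 6.09-fold lower at day 10 (4.98 to 7.50).

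The 5 sensors of nucleic acid were all at least 2-fold lower at day 10, with log2 ratios from −1.28 to −2.89. Zbp1, a sensor of left-handed double helices that can trigger inflammatory cell death, had the steepest early drop of all members: 311 CPM at day 3, 54.8 at day 6 and 41.9 at day 10. It was 5.67-fold lower at day 6 than at day 3 (5.11 to 6.32). The RNA helicases behaved differently among themselves, since Ddx58 (RIG-I) and Dhx58 (LGP2) fell by 1.31 and 1.62 on the log2 scale between days 3 and 6, and Ifih1 (MDA5) by 0.31. Whether these genes differ beyond the spread between mice cannot be told from 1 library a day.

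Of the 8 antiviral effectors, 7 were at least 2-fold lower at day 10 than at day 3 (median log2 ratio −2.27). Rsad2 (viperin, which makes a chain-terminating nucleotide) stood at 207 CPM at day 3, 142 CPM at day 6 and 27.2 CPM at day 10. Its order of loss was the reverse of that of Zbp1: the day 6 level was 1.45-fold below day 3, and the day 10 level 5.22-fold below day 6 (4.60 to 5.92). Cmpk2, a mitochondrial nucleotide kinase whose gene lies next to Rsad2 on chromosome 12 and is read from the opposite strand, followed the same order at 28.9, 18.3 and 5.70 CPM. Rtp4, a chaperone of receptor trafficking with antiviral activity, went from 213 to 53.7 and 28.9 CPM. Mx1, a gene of the dynamin-like GTPase family, went from 64.6 to 29.6 and 11.8 CPM.

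Ifitm3, a membrane protein that hinders the entry of viruses, carried more UMIs than any other member, with 5643 CPM at day 3, 1552 at day 6 and 1756 at day 10. It supplied 42.0% of the summed UMIs at day 3, 36.8% at day 6 and, at day 10, 21275 of 42547. Chemistry that counts transcript ends gives no length to divide by, so such ranks compare captured transcript ends. Ifitm3 was the only member whose interval lay above 1 between days 6 and 10 in the kept cells, with a ratio of 1.13 (1.11 to 1.16). Bst2 (tetherin, which holds budding virions at the cell surface) stood at 591, 245 and 167 CPM. Samd9l, a regulator of endosomes and translation, changed least of all members at 72.3, 50.7 and 55.1 CPM, and was 1.31-fold lower at day 10 than at day 3 (1.18 to 1.46).

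The PARP9-DTX3L group, a mono-ADP-ribosylation complex encoded with Parp14 in 1 region of chromosome 16, was 3 of 3 at least 2-fold lower but with small folds (median log2 ratio −1.11). Parp9 and Dtx3l, which overlap at their starts and are read in opposite directions, had 50.5, 35.1 and 23.4 CPM and 58.9, 41.4 and 29.1 CPM. Of the 3 guanylate-binding proteins, GTPases that attack vacuoles of intracellular microbes and are strongly induced by interferon gamma, 2 were at least 2-fold lower. Gbp3 did not reach that limit, with 23.4, 16.9 and 12.0 CPM and a log2 ratio of −0.97.

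The 5 genes of the PHF11 and TRIM30 clusters on chromosomes 14 and 7 were all at least 2-fold lower (median log2 ratio −2.01). Phf11d, a member of the PHD finger family, stood at 77.6, 25.5 and 12.3 CPM. Near-identical copies can share or lose UMIs here: 42.6% of the 50-base words in the last 500 bases of Phf11b transcripts also occurred in another gene, as did 32.8% in Phf11a, 22.5% in Phf11d and 16.9% in Trim30d. For Ifitm3 the share was 14.0%, with the predicted genes Gm7676 and Gm11951. Values of these genes are uncertain to that extent.

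All 7 remaining members were at least 2-fold lower at day 10 than at day 3. Ifi27l2a, a small mitochondrial protein gene that is among the most strongly induced by interferon in mouse myeloid cells, was next in abundance to Ifitm3 with 3005, 835 and 669 CPM at the 3 days. Xaf1, a partner of the apoptosis inhibitor XIAP, stood at 128, 40.9 and 25.5 CPM. Ifi44 was the rarest member, with 40, 18 and 11 UMIs in the 3 libraries.

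Spread between cells was measured after thinning each cell to 2000 UMIs, which left out 21, 47 and 90 shallower cells and kept 879, 551 and 1272. The median cell then held 25 UMIs of the 37 genes at day 3, 5 at day 6 and 3 at day 10. Without thinning, the medians per 10000 UMIs of a cell were 125.0, 23.6 and 15.9, from cells with median depths of 10629, 11778.5 and 8285 UMIs. The coefficient of variation between cells was 0.58 at day 3, 1.24 at day 6 and 1.34 at day 10, where sampling of UMIs alone would give 0.19, 0.35 and 0.40. Both ends of the distribution moved down: the 5th percentile was 7, 0 and 0 UMIs on the 3 days and the 95th was 58.2, 28 and 23. Cells with 0 UMIs of any member made up 0.341%, 7.62% and 12.0%. Without Ifitm3, Ifi27l2a and Isg15, the 3 most abundant members, the coefficients were 0.80, 1.60 and 1.74, in the same order.

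**Figure D2:**
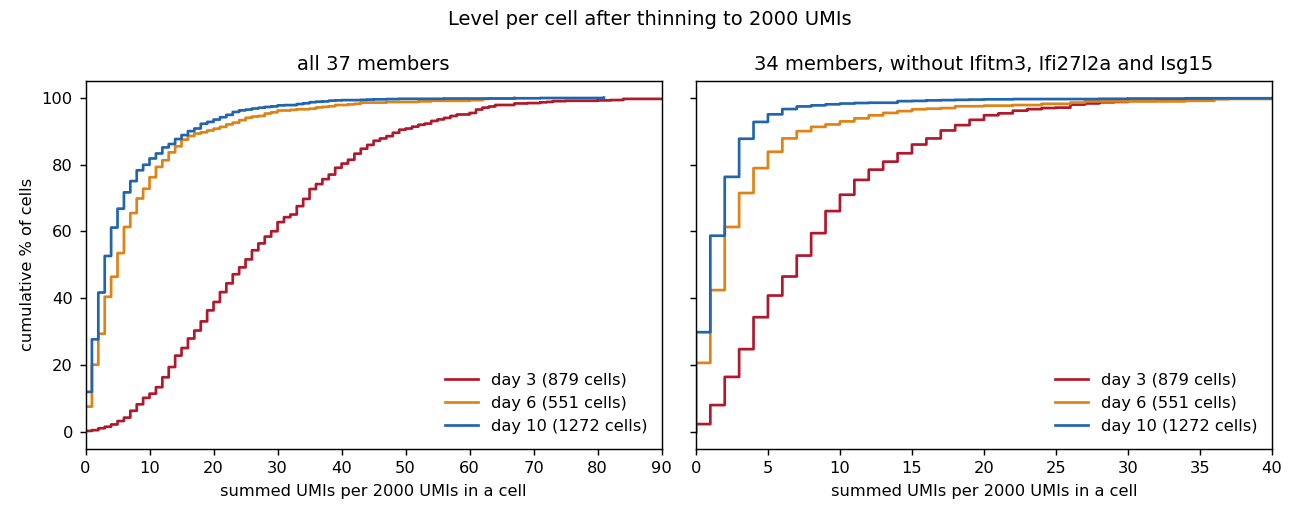
Cumulative percentage of cells (vertical axis) against the UMIs of the summed members in a cell thinned to 2000 UMIs (horizontal axis), for all 37 members and for the 34 without Ifitm3, Ifi27l2a and Isg15; 1 line per day, 879, 551 and 1272 cells. The day 3 curve lies to the right with a median of 25 UMIs for the 37 members, and the curves of days 6 and 10 rise steeply to medians of 5 and 3 UMIs.

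Single members differed in how evenly cells carried them. At day 10 the top 5% of kept cells held 97.6% of the Rsad2 UMIs and 73.2% of those of Isg15, but 29.6% of those of Ifitm3. At day 3 the same share of cells held 55.0%, 28.9% and 13.1%, and at day 6 it held 87.0%, 63.0% and 27.4%. The share in the top cells also rises as a gene becomes rarer, so the 3 days are not at equal precision. Across the 879 thinned cells of day 3, the UMIs of Isg15 had a Spearman rho of 0.60 with the summed other members (Ifitm3 and Ifi27l2a left out), the highest of the 37. Irf7 followed with 0.44, Zbp1 with 0.41 and Rsad2 with 0.40, and Ifi44 (0.05) and Irf9 (0.08) had the lowest. These cells share 1 library and the members differ in depth, so the order is a description, and low counts lower rho.

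Among the 3 marker populations, the fall was deepest inside the C1qa-positive cells, the population with macrophage features. In the 128, 260 and 611 C1qa-positive cells of days 3, 6 and 10 the 37 genes summed to 14341, 3744 and 1898 CPM, a 7.56-fold fall from day 3 to day 10 (7.38 to 7.74). In the 382, 30 and 75 Ly6c2-positive cells they summed to 15423, 9236 and 10817 CPM, 1.43-fold lower at day 10 (1.39 to 1.46). In the 125, 102 and 166 Cd209a-positive cells the sums were 10571, 5208 and 5958 CPM, 1.77-fold lower (1.74 to 1.81). The sums also fell in the 335, 220 and 522 cells with none of the 3 markers, at 12784, 3570 and 2885 CPM. Ly6c2-positive cells at day 10 thus held more of these transcripts than C1qa-positive cells did at day 6. The size of the Ly6c2 value depends on which abundant members are summed. Without Ifitm3 the sum was 1.78-fold lower at day 10 in those cells (1.72 to 1.83). Without Ifitm3, Ifi27l2a and Isg15 the other 34 members summed to a level 2.10-fold lower (1.998 to 2.20). Of these 3, Ifitm3 and Ifi27l2a changed little there (log2 ratios −0.16 and −0.39), while Isg15 fell more than the sum (−2.01).

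**Figure D3:**
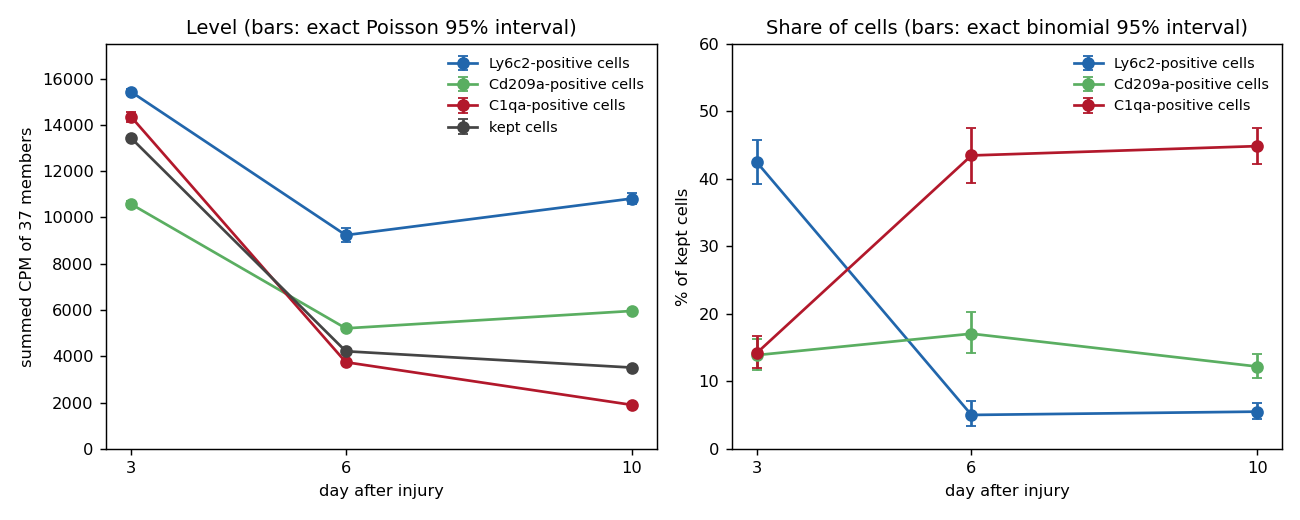
Summed CPM of the 37 members in Ly6c2-, C1qa- and Cd209a-positive cells (at least 3 UMIs of the marker) at days 3, 6 and 10, and the percentage of kept cells in each population; points are single libraries and bars 95% intervals for counting error. The C1qa-positive sum ends at 1898 CPM and the Ly6c2-positive sum at 10817 CPM, while C1qa-positive cells grow from 14.2% to 44.9% of the kept cells.

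Counted by member, 35 of the 36 members with at least 20 UMIs were at least 2-fold lower at day 10 than at day 3 in C1qa-positive cells (5.84% of all genes), with a median log2 ratio of −2.39 against 0.13 over 9614 genes. In Ly6c2-positive cells 17 of 36 were (7.63%), with a median of −0.97 against −0.02 over 8586 genes, and in Cd209a-positive cells 22 of 37 (3.78%), with a median of −1.02 against 0.02 over 8538 genes. The log2 ratio was higher in Ly6c2- than in C1qa-positive cells for 36 of 36 members, where 45.3% of 8447 genes had that order. It was at least 1 log2 unit higher for 31 of the 36, against 7.1% of those genes, with a median difference of 1.54. Ly6c2 itself responds to interferon, and the part of choosing cells by it in this order was not tested. Between Cd209a- and C1qa-positive cells the order was the same for 36 of 36 members (47.5% of 8276 genes), with a median difference of 1.46, and it was at least 1 log2 unit higher for 27 of the 36 (6.34% of those genes). The populations overlap where a cell carries more than 1 marker. Cells positive for C1qa alone had 11529, 3392 and 1827 CPM in 77, 247 and 605 cells, and cells positive for Ly6c2 alone 15229 CPM at day 3 and 10855 at day 10 in 315 and 68 cells.

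**Figure D4:**
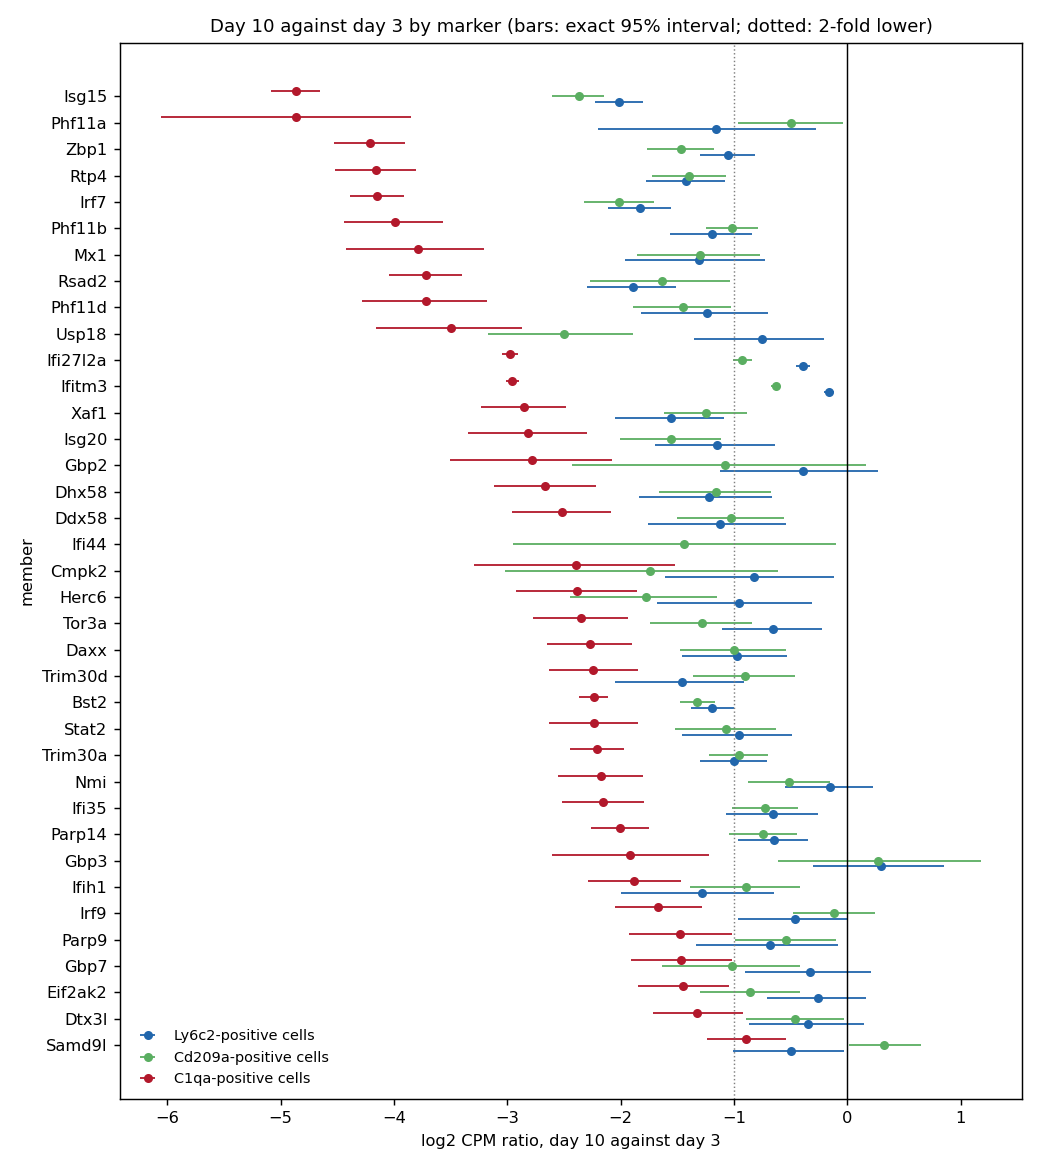
Log2 ratio of CPM at day 10 to day 3 (horizontal axis) for each member (vertical axis) in Ly6c2-, C1qa- and Cd209a-positive cells. Bars are exact conditional binomial 95% intervals, and the dotted line marks a level 2-fold lower. Ifi44 is drawn in Cd209a-positive cells only because it had under 20 UMIs in the others. The C1qa-positive points lie left of the others for every member drawn in all 3 populations, down to −4.86 for Isg15.

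The 6 members with the widest gap between Ly6c2- and C1qa-positive cells were Phf11a, Zbp1, Isg15, Phf11b, Ifitm3 and Usp18. Isg15 stood at 1128, 209 and 38.8 CPM in C1qa-positive cells, a 29.1-fold fall by day 10 (25.1 to 33.9). In Ly6c2-positive cells it stood at 971, 551 and 241 CPM, a 4.03-fold fall (3.50 to 4.67). Isg15 was thus close between both populations at day 3 and far apart at day 10. Zbp1 in C1qa-positive cells went from 363 to 48.1 and 19.7 CPM, and in Ly6c2-positive cells from 381 to 175 and 184 CPM. Its level in the Ly6c2-positive cells changed little after day 6. Phf11a stood at 49.5, 10.5 and 1.70 CPM in C1qa-positive cells on 64, 32 and 9 UMIs, and at 29.8, 22.5 and 13.3 CPM in Ly6c2-positive cells on 132, 9 and 11 UMIs. In the Ly6c2-positive cells of day 6, 1 cell held 7 of the 9, and without the highest cell of each library Phf11a stood at 28.6, 5.28 and 11.1 CPM there. Phf11b had 169, 35.0 and 10.6 CPM in C1qa-positive and 191, 143 and 83.5 CPM in Ly6c2-positive cells.

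Phf11a and Phf11b were less reduced in Cd209a-positive cells, where Phf11a stood at 43.2, 22.4 and 30.6 CPM and Phf11b at 210, 98.8 and 104 CPM. In cells positive for Ly6c2 or C1qa without Cd209a, the Phf11a ratio of day 10 to day 3 was 0.0767, against 0.279 in all kept cells, and that of Phf11b 0.0992 against 0.210. Ifitm3 stood at 6433, 3243 and 5754 CPM in Ly6c2-positive cells, lowest at day 6, and was 1.12-fold lower at day 10 than at day 3 (1.08 to 1.15). In C1qa-positive cells it stood at 5126, 848 and 661 CPM, a 7.76-fold fall (7.44 to 8.08). Usp18 went from 61.9 to 24.5 and 5.48 CPM in C1qa-positive cells and from 61.3 to 47.5 and 36.3 CPM in Ly6c2-positive cells.

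At day 3 the levels in Ly6c2- and C1qa-positive cells were close, but 48 of the 128 C1qa-positive cells were also Ly6c2-positive, and these 48 held 18473 CPM. Cells positive for Ly6c2 alone held 15229 CPM against 11529 for C1qa alone. With the shared cells in both populations, the median member differed by −0.07 log2 units between them, and 0 of 37 members were at least 2-fold higher (2.41% of all genes) or lower (3.64%) in the Ly6c2-positive cells. By day 6, 20 of 36 members were at least 2-fold higher in Ly6c2- than in C1qa-positive cells (4.78%), and by day 10, 29 of 36 (7.08%), with a median log2 difference of 1.69. At day 3 the members summed to 10571 CPM in Cd209a-positive and 14341 CPM in C1qa-positive cells. There 8 of 37 members were at least 2-fold lower in Cd209a- than in C1qa-positive cells, a share not far from the 14% of all genes. At day 10, 15 of 36 members were at least 2-fold higher in Cd209a- than in C1qa-positive cells (9.3%). Median depth differed among the populations, at 10657, 8042 and 14263.5 UMIs per cell for Ly6c2-, C1qa- and Cd209a-positive cells of day 10, and its part in these values was not tested. The same holds for the choice of cells by Ly6c2.

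Cells at the day 3 level were rare at day 10 and most frequent among Ly6c2-positive cells. Of the 68 thinned cells of day 10 positive for Ly6c2 alone, 26 (38.2%, exact 95% interval 26.7 to 50.8) reached 25 UMIs, the median of all cells at day 3. Among cells positive for C1qa alone 5 of 585 did (0.855%), among Cd209a-positive cells 9 of 166 (5.42%), and among cells with none of the markers 8 of 452 (1.77%). The 26 cells were counted with Ifitm3, and without it the 75th percentile of the Ly6c2-positive cells of day 10 was 13 UMIs, below the day 3 median of 14 over all cells. The coefficient of variation in Ly6c2-positive cells was 0.53, 1.01 and 0.49 at days 3, 6 and 10, and in C1qa-positive cells 0.56, 1.46 and 1.40. Without the 3 most abundant members the Ly6c2-positive values were 0.77, 1.21 and 1.13. Cells were chosen here by the UMIs of a gene that itself responds to interferon, and the part of that choice in these shares was not tested.

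In the C1qa-positive cells the members differed in how much of their fall lay before day 6. Between days 3 and 6, 27 of 36 were at least 2-fold lower (4.22% of all genes), and between days 6 and 10, 17 of 36 (4.45%). Ifitm3 and Zbp1 had most of their log2 fall behind them by day 6, at 87.8% and 69.3%, and the same held for Eif2ak2 (the kinase PKR) at 96.2%, Nmi at 90.2% and the exonuclease gene Isg20 at 84.6%. Eif2ak2, Nmi and Isg20 were picked out after their values were seen. Isg15 and Irf7 were about midway, at 50.1% and 55.6%. Rsad2, Gbp2, Ifih1 and Cmpk2 had most of theirs still ahead, with 14.8%, 11.5%, 22.4% and −22.7%. These shares have no interval and rest on 1 library a day. Cells positive for both C1qa and Ly6c2, without Cd209a, numbered 48, 10 and 1 at days 3, 6 and 10. Their part in the shares was not tested. Irf7 in C1qa-positive cells stood at 610, 123 and 34.4 CPM, Ifih1 at 75.8, 56.6 and 20.6 CPM, and Gbp2 at 36.4, 29.1 and 5.29 CPM.

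**Figure D5:**
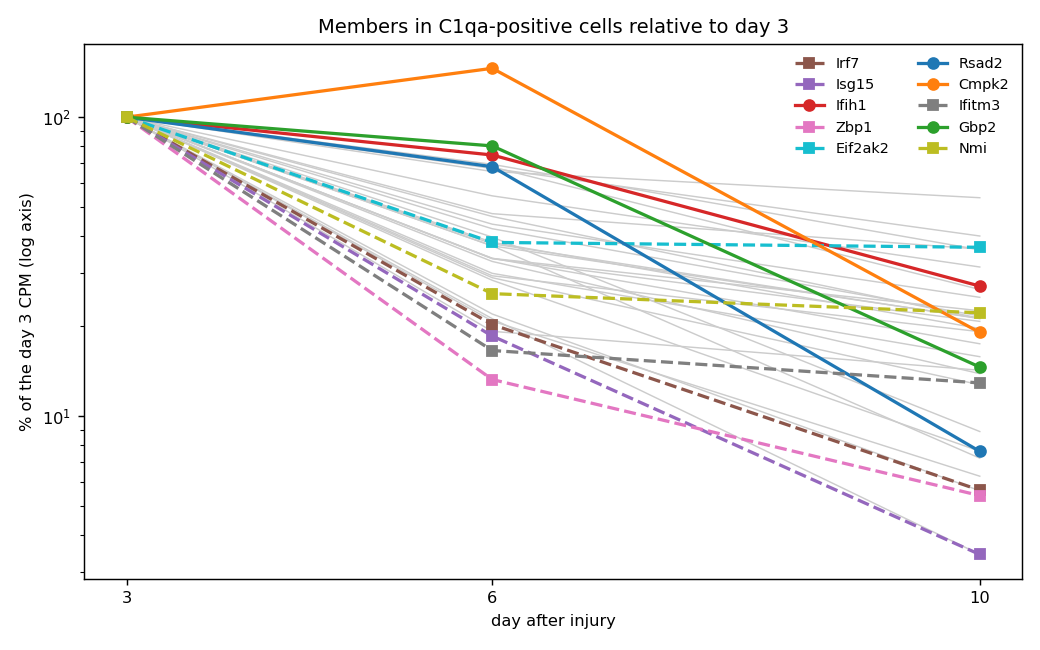
CPM of members in C1qa-positive cells at days 3, 6 and 10 as a percentage of their day 3 CPM, on a log axis; solid lines are Rsad2, Cmpk2, Gbp2 and Ifih1, dashed lines Isg15, Irf7, Zbp1, Ifitm3, Nmi and Eif2ak2, grey lines the other members with at least 3 UMIs in each library. Rsad2 stands at 182 CPM at day 6 after 266 at day 3, whereas Zbp1 has dropped from 363 to 48.1 CPM.

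Single cells carried part of the levels of these genes. In C1qa-positive cells of day 6, 1 cell held 138 of the 555 Rsad2 UMIs. With the highest cell of each library removed, Rsad2 stood at 218, 137 and 9.86 CPM and its day 6 to day 3 log2 ratio was −0.67, so most of its fall still came after day 6. Cmpk2 was at 20.9, 30.4 and 3.97 CPM with all C1qa-positive cells and at 18.8, 19.1 and 1.90 CPM without the highest cells. Gbp2 without them was at 20.4, 24.7 and 4.55 CPM. The fall from day 6 to day 10 was present in all 3 genes with and without those cells.

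In the Ly6c2-positive cells, the 4 members with the highest ratio of day 6 to day 3 were Gbp2, Gbp3, Rsad2 and Parp9. Most members were lower at day 6 than at day 3 there, 29 of 36, with a median log2 ratio of −0.37 against 0.15 over all genes. The interval lay below 1 for 16 of them and above 1 for 2 members. At least 2-fold lower were 4 of 36 (3.49% of all genes), and 9 of 36 at day 10 than at day 6 (12.6%). Gbp2 stood at 33.4, 62.6 and 25.4 CPM, its day 6 value resting on 25 UMIs, of which 1 cell held 10. Gbp3 stood at 31.6, 45.0 and 38.7 CPM, and the interval of its day 6 to day 3 ratio held 1 (0.822 to 2.34). Rsad2 stood at 260, 343 and 70.2 CPM, and 1 of the 30 cells of day 6 held 74 of its 137 UMIs. Without the highest cell of each library the day 6 to day 3 log2 ratio of Rsad2 turned from 0.40 to −0.57, so its rise at day 6 rests on that cell. A further cell of these 30 carried all 52 UMIs of the natural killer genes Ncr1, Klrb1c and Nkg7, and without it the summed level at day 6 was 9839 CPM in place of 9236. In C1qa-positive cells of day 6, 5 of 260 cells held at least 3 UMIs of erythroid genes, and without them the sum was 3751 CPM in place of 3744.

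In Cd209a-positive cells the median member fell by day 6 (log2 ratio −0.93) and changed little afterwards (−0.07). Between days 3 and 6, 16 of 37 members were at least 2-fold lower (2.96% of all genes). Between days 6 and 10, 2 of 35 were, a share not far from the 3.68% of all genes. These were Usp18 and Cmpk2, with log2 ratios of −1.39 and −1.28. Single members still moved both ways after day 6: 8 of the 35 had an interval below 1, 3 had one above 1, and 24 had one holding 1. Without the highest cell of each library Usp18 stayed past 2-fold (−1.07) and Cmpk2 did not (−0.88). Isg15 stood at 422, 115 and 81.7 CPM in these cells and Irf7 at 194, 59.5 and 48.1 CPM. Irf9 changed little, with 60.4, 57.9 and 55.7 CPM. Samd9l stood at 68.4, 62.3 and 85.9 CPM, 1.26-fold higher at day 10 than at day 3 (1.01 to 1.57).

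The rest of the pathway was read from lists of other genes in the kept cells, as counts beside the 3.96% of all genes that were at least 2-fold lower at day 10 than at day 3. Of 21 interferon ligand genes, 20 had 0 UMIs in the kept cells of all 3 libraries. Ifnb1, which encodes interferon beta, had 55, 26 and 2 UMIs. At day 3, 42 of them lay in 3 Ly6c2-positive cells, 15 in 2 C1qa-positive cells and 12 in 4 cells with none of the 3 markers. A cell with more than 1 marker counts in each population. At day 6, 20 lay in 1 Ly6c2-positive cell and 4 in 2 C1qa-positive cells. Interferon alpha, gamma and lambda transcripts were thus not detectable in the kept cells at this depth.

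None of the 5 measured receptor genes was at least 2-fold lower or higher. Ifnar1 and Ifnar2, the chains of the type I receptor, stood at 94.7, 78.7 and 80.6 CPM and at 162, 136 and 163 CPM. Among the JAK-STAT and IRF signalling genes, the feedback inhibitor gene Socs1 and the myeloid factor gene Irf8 had the highest log2 ratios, 0.93 and 0.52, and Socs3 and Irf1 had ratios of −0.73 and −0.68. In the pathway that induces interferon, 3 of 14 measured genes were at least 2-fold lower, namely Ikbke, Samhd1 and Adar, which are themselves known to respond to interferon.

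Among genes known to respond more to interferon gamma, 7 of 9 measured were at least 2-fold lower and 1 was higher. Cxcl10, a chemokine that attracts T cells, stood at 320, 204 and 59.9 CPM, and the immunity-related GTPase gene Igtp had a log2 ratio of −1.91. Iigp1 was the 1 that was higher, on 3, 20 and 20 UMIs (ratio 5.37, 1.59 to 28.2). Ciita, which drives antigen-presentation genes, had a log2 ratio of 0.42. Of the IFIT and OAS families, 10 of 12 measured genes were at least 2-fold lower, with a median log2 ratio of −2.27, led by Oasl1 (−3.26) and Oas3 (−3.13). Of these 12, 5 were at least 2-fold lower at day 6 than at day 3 (3.31% of all genes) and 7 at day 10 than at day 6 (3.63%). In C1qa-positive cells 10 of 11 were at least 2-fold lower at day 10 than at day 3 (5.84% of all genes), with a median of −3.06. For the same days 7 of 11 were in Ly6c2-positive cells (7.63%), with a median of −1.12.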

How the data were processed

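The deposited files hold raw counts of UMIs per gene and barcode, made by the authors with Cell Ranger 3.0.2 against mm10, per the submitters' processing notes; the sources used here do not name the annotation release. The 3 libraries had 1472, 1196 and 2209 barcodes with 11199361, 9273960 and 13972817 UMIs. Members and gene lists were chosen with earlier results of these data known.

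UMIs of kept cells were summed per library and expressed as CPM. Intervals are exact 95% intervals (Poisson for CPM, conditional binomial for ratios, Clopper-Pearson for shares). Genes with 20 or more UMIs in the pair of libraries were compared, a library under 3 UMIs was set to 3 in a ratio, and a call needed 2-fold. Marker-positive cells had at least 3 UMIs of the marker. Scrublet through scanpy 1.11.5 called 12, 6 and 5 doublets, which were kept in the values given. Scaling factors came from edgeR 4.0.16 and DESeq2 1.42.0, with no model fitted, since each day has 1 library. The ratio code was tested on simulated data.

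Values by day are given for the 10 members that fell most from day 3 to day 10, the 5 that fell least and the 5 highest at day 3. In marker-positive cells they are given for the 6 with the widest gap between Ly6c2- and C1qa-positive cells and the 4 with the highest ratio of day 6 to day 3, and per pathway list for up to 2 in each direction. Members named beyond this were picked after their values were seen. Gene coordinates are from GENCODE vM21 (GRCm38) and promoter windows from RefSeq, whose table had none for Rtp4, Zbp1, Dhx58, Parp14, Ifi27l2a, Parp9, Usp18, Mx1 and Tor3a. Alternatives covered cell filters, doublets, scaling, cell weight, cell mix, minimum counts, fold limit, marker threshold, thinning and members summed. Some results on marker and pathway genes are not reported here.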

Additional observations from a re-analysis of the deposited data

Results flagged for a closer look

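Some members moved in opposite directions in different marker populations, each with a counting interval clear of no change on both sides. None of these differences was tested, since each day has 1 library. Samd9l, a regulator of endosomes and translation, had a day 10 to day 3 log2 ratio of 0.33 in Cd209a-positive cells, −0.50 in Ly6c2-positive cells and −0.90 in C1qa-positive cells.

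Between days 6 and 10, Ifitm3 had log2 ratios of 0.83 in Ly6c2-positive, 0.41 in Cd209a-positive and −0.36 in C1qa-positive cells. For Ifi27l2a they were 0.43 in Ly6c2-positive, −1.19 in C1qa-positive and −0.16 in Cd209a-positive cells. Ifi35, an adaptor that pairs with NMI, had 0.45 in Cd209a-positive and −0.58 in C1qa-positive cells. The sum of the 37 members followed, with 0.23 in Ly6c2-positive, 0.19 in Cd209a-positive and −0.98 in C1qa-positive cells; without Ifitm3 alone the ratio of day 10 to day 6 was 0.845 in Ly6c2-positive and 0.934 in Cd209a-positive cells, so the higher sums at day 10 rest on Ifitm3.

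Rsad2 had a day 6 to day 3 log2 ratio of 0.40 in Ly6c2-positive cells, −0.55 in C1qa-positive cells and −0.78 in Cd209a-positive cells. Without the cell highest in Rsad2 in each library the first of these was −0.57.

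Barcodes left out by the cell filter also carried the members, at 8436 CPM at day 3, 2113 at day 6 and 1842 at day 10, lower than in the kept cells on each day and in the same order of days.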

How the results depend on the processing

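Of 222 alternative values of the summed ratios, member counts, medians and spreads, 156 were labelled unchanged and 66 moved. Unchanged meant within counting error, 1.5 times the count or, for spreads, a fixed margin. A change of direction was looked for only in summed ratios at or below 0.5, and none of those crossed 1. Of 1174 alternative ratios of members called lower, all 1174 stayed below 1 and 1141 at or below 0.5. With all 37 members in kept cells, the ratios of day 10 to day 3, day 6 to day 3 and day 10 to day 6 (0.262, 0.314 and 0.833) became 0.258, 0.305 and 0.848 at a mitochondrial limit of 20%, and 0.257, 0.294 and 0.875 with no cell filter. They were 0.196, 0.272 and 0.720 in Ly6c2 or C1qa cells without Cd209a, 0.236, 0.267 and 0.884 with TMM factors, 0.230, 0.262 and 0.880 with median-of-ratios factors, and 0.221, 0.284 and 0.779 as means of per-cell shares. They were 0.442, 0.461 and 0.959 with the day 3 mix of marker classes (11 members lower at day 6), 0.226, 0.342 and 0.659 without Ifitm3, and 0.254, 0.412 and 0.617 without the 3 most abundant members. At 1.5-fold the counts were 19 (day 10 against day 6) and 26 (Ly6c2-positive), and at 3-fold 2 (day 10 against day 6), 10 (day 6 against day 3), 3 (Ly6c2-positive) and 6 (Cd209a-positive). The share over all genes was not computed at these limits or for the reweighted mix.

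The Ly6c2-positive ratio of day 10 to day 3 (0.701) was 0.637 with a marker limit of 1 UMI, 0.673 with TMM factors, 0.563 without Ifitm3 and 0.477 without the 3 most abundant members. The C1qa-positive ratio (0.132) was 0.141 at 1 UMI, 0.158 with that marker alone, 0.127 and 0.124 with TMM and median-of-ratios factors, 0.123 as a mean of per-cell shares and 0.163 without the 3 most abundant members. The Cd209a-positive ratio (0.564) was 0.536 at 1 UMI, 0.551 with median-of-ratios factors, 0.468 without Ifitm3 and 0.477 without the 3 most abundant members. Leaving out the highest cell of each library, chosen after seeing the data, gave 0.309 (day 6 against day 3), 0.685 (Ly6c2-positive) and 0.129 (C1qa-positive). The median at day 3 was 22 with no cell filter and 29 in Ly6c2 or C1qa cells without Cd209a, where the coefficient of variation at day 6 was 1.38. Without Ifitm3 the medians were 14, 3 and 2 with coefficients of 0.75, 1.45 and 1.69, and without the 3 most abundant members 7, 2 and 1 with 0.80, 1.60 and 1.74. Where an alternative sums fewer members, uses fewer cells or sets another fold limit, its construction changes the value; otherwise the cause was not tested.

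Among named members, the Gbp2 ratio in Ly6c2-positive cells was 0.246 in place of 0.762 with the marker at 10 UMIs, and the Cmpk2 ratio in C1qa-positive cells 0.384 in place of 0.190 with that marker alone. No paired analysis was possible because each day has 1 library and the labels give no replicate numbers. Depth limits what can be said of Ifi44, with 11 UMIs in the kept cells of day 10, and of the 30 Ly6c2-positive cells of day 6.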
